A study of Mus musculus with 18 samples.

Results

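The Notch genes described here are the ligand genes Dll1, Jag1 and Jag2, the receptor genes Notch1, Notch2 and Notch3, and the target and family genes Hes1, Hes6, Hey1 and Heyl. They were taken by symbol from the table of estimated counts, and all 10 were found among its 24376 genes and passed the filter on low counts. The RNA came from microdissected mouse mammary epithelium, taken from buds 1 to 3 on a mixed C57Bl/6 and NMRI background. In stabilized embryos (Krt14Cre/wt; Ctnnb1 flox3/wt), Cre under the promoter of a basal keratin gene cuts exon 3 out of the floxed Ctnnb1 allele in epithelial cells, which leaves a β-catenin that escapes destruction, and the second Ctnnb1 allele is wild type. Controls were littermates of the genotype Ctnnb1 flox3/wt without Cre, so effects of Cre cannot be told apart from those of stabilized β-catenin. The E13.5 set (4 stabilized and 4 control libraries) mixed male and female embryos, and the E16.5 set (5 stabilized and 5 control libraries) was female, so stage and sex makeup cannot be told apart either. A library was a pool of 2 to 3 littermates of 1 genotype, and which libraries share a litter is not given.

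Notch signalling passes between neighbouring cells. A ligand of the Delta (Dll) or Jagged (Jag) family on the surface of a cell binds a Notch receptor on the next, the receptor is cut by Adam10 and then by γ-secretase, and its inner part enters the nucleus, joins Rbpj and Maml proteins and switches on genes such as Hes1, Hey1, Heyl and Nrarp. In the mammary epithelium the pathway is known for directing progenitors to the luminal fate, in the epidermis for the step into the suprabasal layers, and in the hair follicle for the differentiation of the shaft and inner sheath.

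Libraries held 26768810 to 36922108 counts. A pair of libraries stood apart from their groups in a way that touches these genes. The log2 level of transcripts of 60% GC relative to those of 45% GC was compared with the average over the 18 libraries. It stood at -0.36 in E13.5 control replicate 3 and -0.42 in E16.5 stabilized replicate 4, against -0.13 to 0.21 in the other 16. In that E13.5 control, mitochondrial genes took 4.18% of the counts, and 2.18 to 2.50% in its group's other libraries. It was also the lowest of its group for 4 of the 10 genes (Jag2 and the 3 receptor genes), and E16.5 stabilized replicate 4 was the lowest of its group for 8. The part of GC content in the levels was tested only through the alternatives named beside the results below. Ctnnb1 itself had 3260 ± 347 CPM in E13.5 stabilized and 2683 ± 333 CPM in E13.5 control libraries (SD, n = 4 each), and 2278 ± 564 CPM in E16.5 stabilized and 1248 ± 111 CPM in E16.5 control libraries (SD, n = 5 each); the counts are per gene and do not show the loss of exon 3. CPM are counts scaled to the library total after TMM normalization, and "SE" is the standard error of a log2 fold change.

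Promoter windows of 300 bases (250 before to 50 after a start site, RefSeq, GRCm38.p6) were at hand for 7 of the 10 genes, 9 windows in all. Those of Dll1 and Jag1 are shown because these ligand genes moved in opposite directions at E16.5, and those of Hes6 because it was the Hes gene that rose at both stages. Capitals mark CACNAG, the N-box that Hes repressors bind, read on both strands. The windows lie on the minus strand, at chr17:15375774-15376073 and chr17:15376883-15377182 for Dll1, chr2:137116471-137116770 for Jag1, and chr1:91413173-91413472 and chr1:91413989-91414288 for Hes6.
Dll1, first window: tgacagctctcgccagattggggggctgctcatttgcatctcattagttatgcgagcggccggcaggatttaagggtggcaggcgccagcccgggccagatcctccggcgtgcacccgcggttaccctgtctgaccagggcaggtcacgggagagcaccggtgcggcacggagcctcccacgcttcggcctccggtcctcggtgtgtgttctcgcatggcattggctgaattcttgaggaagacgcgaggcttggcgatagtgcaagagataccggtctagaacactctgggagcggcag
Dll1, second window: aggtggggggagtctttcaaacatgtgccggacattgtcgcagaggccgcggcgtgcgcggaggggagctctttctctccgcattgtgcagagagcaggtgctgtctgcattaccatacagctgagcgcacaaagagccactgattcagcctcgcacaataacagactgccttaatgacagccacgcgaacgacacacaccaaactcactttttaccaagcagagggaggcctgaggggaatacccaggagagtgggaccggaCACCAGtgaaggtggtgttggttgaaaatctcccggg
Jag1: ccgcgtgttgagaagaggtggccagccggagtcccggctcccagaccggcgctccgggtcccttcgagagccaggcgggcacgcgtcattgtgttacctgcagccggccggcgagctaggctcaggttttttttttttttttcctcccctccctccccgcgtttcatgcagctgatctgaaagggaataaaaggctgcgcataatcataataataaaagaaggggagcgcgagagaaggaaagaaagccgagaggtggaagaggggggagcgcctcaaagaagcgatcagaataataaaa
Hes6, first window: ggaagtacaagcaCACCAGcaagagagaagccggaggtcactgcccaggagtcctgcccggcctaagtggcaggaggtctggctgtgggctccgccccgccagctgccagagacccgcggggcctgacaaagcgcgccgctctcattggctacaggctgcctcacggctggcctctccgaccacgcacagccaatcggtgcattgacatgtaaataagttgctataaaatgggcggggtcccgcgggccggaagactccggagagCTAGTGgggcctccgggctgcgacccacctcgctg
Hes6, second window: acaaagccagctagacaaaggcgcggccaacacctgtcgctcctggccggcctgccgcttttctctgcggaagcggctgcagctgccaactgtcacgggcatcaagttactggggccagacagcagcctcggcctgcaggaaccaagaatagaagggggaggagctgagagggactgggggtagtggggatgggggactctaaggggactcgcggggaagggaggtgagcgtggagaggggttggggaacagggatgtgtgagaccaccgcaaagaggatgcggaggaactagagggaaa
The N-box occurs in 42.5% of the 32851 windows of the table, so its presence marks out none of these. None of the 9 windows held GTGGGAA, a site that Rbpj binds (6.38% of all windows), CTTTGAT, a site of the Tcf/Lef partners of β-catenin (3.73%), or CACGTG, an E-box that Hey factors bind (7.15%). A match is letters in a window and not a site in use, and its lack says nothing of sequence further away.

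The genotype comparison asked which of these genes differed between stabilized and control epithelium. At E13.5, 5 of the 10 rose (Dll1, Jag1, Hes6, Hey1 and Heyl), 1 fell (Notch3) and 4 did not pass; over all 17269 genes tested, 14.9% were called, 9.58% upward and 5.29% downward. At E16.5, 5 rose (Jag1, Jag2, Notch2, Hes6 and Heyl), 2 fell (Dll1 and Hey1) and 3 did not pass, against 41.7% of all genes called, 22.2% upward and 19.4% downward. The median log2 fold change of the 10 was 0.62 at E13.5 and 0.28 at E16.5, beside 0.01 and 0.10 over all genes tested. For 3 genes both stages gave a rise (Jag1, Hes6 and Heyl), and for 2 (Dll1 and Hey1) a rise at E13.5 and a fall at E16.5. In bulk tissue, more or fewer cells with a transcript and more or less of it per cell cannot be told apart. All p-values are from edgeR's quasi-likelihood test, adjusted over all genes, and measure the spread between pooled samples. The CPM of the genotypes did not overlap for 5 of the 10 genes at E13.5, all higher in stabilized libraries (over all genes, 9.93% had stabilized libraries all higher and 6.6% all lower). At E16.5 they did not overlap for 6, with 4 higher and 2 lower in stabilized libraries (18.4% and 17.9% of all genes). The genotype effect itself differed between stages for 6 of the 10, 3 upward and 3 downward, with 32.2% of all genes called (15.6% and 16.6%).

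**Figure D1:**
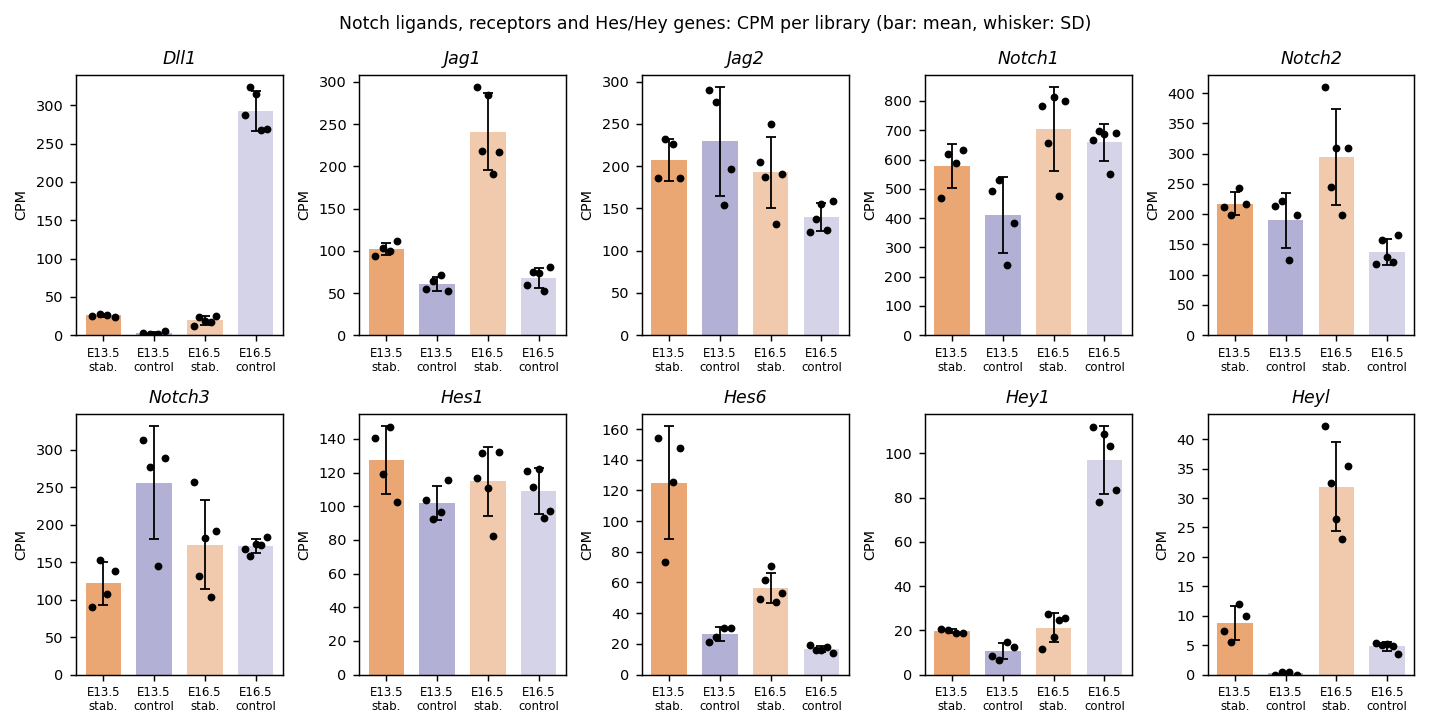
CPM of the 10 genes in each of the 18 libraries (points), with group means (bars) and SD (whiskers) of 4 libraries per genotype at the earlier and 5 at the later stage; "stab." stands for stabilized, and each panel has its own axis from 0. Dll1 and Hey1 stand far higher in E16.5 control libraries than in any other group, Jag1 and Heyl highest in E16.5 stabilized libraries, and Hes1 overlaps between all 4 groups.

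Dll1 (ENSMUSG00000014773, GRCm38 chromosome 17, 15367354 to 15376872), the Delta ligand gene, which in the postnatal gland marks a population of basal cells, had the widest span of the 3 ligand genes. At E13.5 its 4 stabilized libraries had 25.8, 28.2, 26.4 and 23.8 CPM, against 2.51, 1.81, 2.07 and 5.24 CPM in the 4 control libraries. Every stabilized library was above every control, by 3.16 ± 0.278 on the log2 scale (SE, edgeR adjusted p = 2.47e-07). At E16.5 the 5 stabilized libraries had 12.0, 24.4, 18.1, 17.4 and 25.1 CPM, against 288, 324, 315, 268 and 269 CPM in the 5 control libraries. The groups again stood apart, now the other way round: Dll1 fell by 3.92 ± 0.250 on the log2 scale, 15.1-fold (edgeR adjusted p = 5.86e-10). The difference between these effects was -7.08 ± 0.376 (edgeR adjusted p = 4.68e-10). In the annotation a lincRNA gene on the opposite strand, A930024N18Rik, shares exonic bases with Dll1 and is not among the counted genes, and the strand setting of the counting is not given in the sources used here.

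Jag1 (ENSMUSG00000027276, chromosome 2, 137081456 to 137116644), a Jagged ligand gene, rose at both stages. At E13.5 it had 94.4, 103.8, 99.3 and 111 CPM in stabilized libraries, against 54.4, 64.3, 70.9 and 52.9 CPM in control libraries. At E16.5 it had 294, 218, 285, 191 and 217 CPM in stabilized libraries, against 59.8, 74.5, 73.5, 52.4 and 80.8 CPM in control libraries. No stabilized library reached down to a control at either stage. The rise was 0.75 ± 0.156 at E13.5 (edgeR adjusted p = 0.00204) and 1.82 ± 0.143 at E16.5 (edgeR adjusted p = 6.28e-09), and the effect at E16.5 was the larger by 1.07 ± 0.209 (edgeR adjusted p = 0.000575).

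Jag2 (ENSMUSG00000002799, chromosome 12, 112907819 to 112929776), the other Jagged gene, moved little. It ranged over 186 to 232 CPM in stabilized and 154 to 290 CPM in control libraries at E13.5, and the log2 difference of -0.14 ± 0.190 did not reach the threshold (edgeR adjusted p = 0.724). At E16.5 it ranged over 132 to 249.5 CPM in stabilized libraries and 123 to 159 CPM in controls. The groups overlapped through E16.5 stabilized replicate 4, and the rise of 0.46 ± 0.171 passed narrowly (edgeR adjusted p = 0.0347). It was lost without E16.5 stabilized replicate 1 or 3 (edgeR adjusted p = 0.0603 and 0.107), without E16.5 control replicate 1, 2 or 4 (0.0746, 0.0556 and 0.0691), and under offsets from the deposited signal (0.0556). The change in effect between stages, 0.61 ± 0.256, did not pass (edgeR adjusted p = 0.0763), but did without E13.5 control replicate 3 (0.0159) or E16.5 stabilized replicate 4 (0.0255).

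Set side by side per length, as CPM per kilobase of exon, the ligand transcripts differed in makeup between the groups. Of the summed level of the 5 ligand genes Dll1, Dll3, Dll4, Jag1 and Jag2, Dll1 made up 11.5 ± 0.657% in stabilized and 1.66 ± 1.07% in control libraries at E13.5 (SD, n = 4 each). At E16.5 it made up 6.46 ± 2.23% in stabilized and 68.5 ± 3.09% in control libraries (SD, n = 5 each). Control epithelium at E16.5 thus held mostly Dll1 among its ligand transcripts, while Jag1 and Jag2 together made up nearly all the rest in every group. Jag1's share was 56.1 ± 3.58% in stabilized and 11.5 ± 1.46% in control libraries at E16.5, and Jag2's was 37.3 ± 2.57% and 19.8 ± 1.90%. At E13.5, Jag2 had the largest share in both genotypes, 55.5 ± 2.89% in stabilized and 73.7 ± 7.32% in control libraries. The summed ligand level at E16.5 was 73.7 ± 12.9 CPM per kilobase in stabilized and 101.3 ± 8.34 CPM per kilobase in control libraries. Dll3 and Dll4 each stayed under 1 CPM in every group mean.

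**Figure D2:**
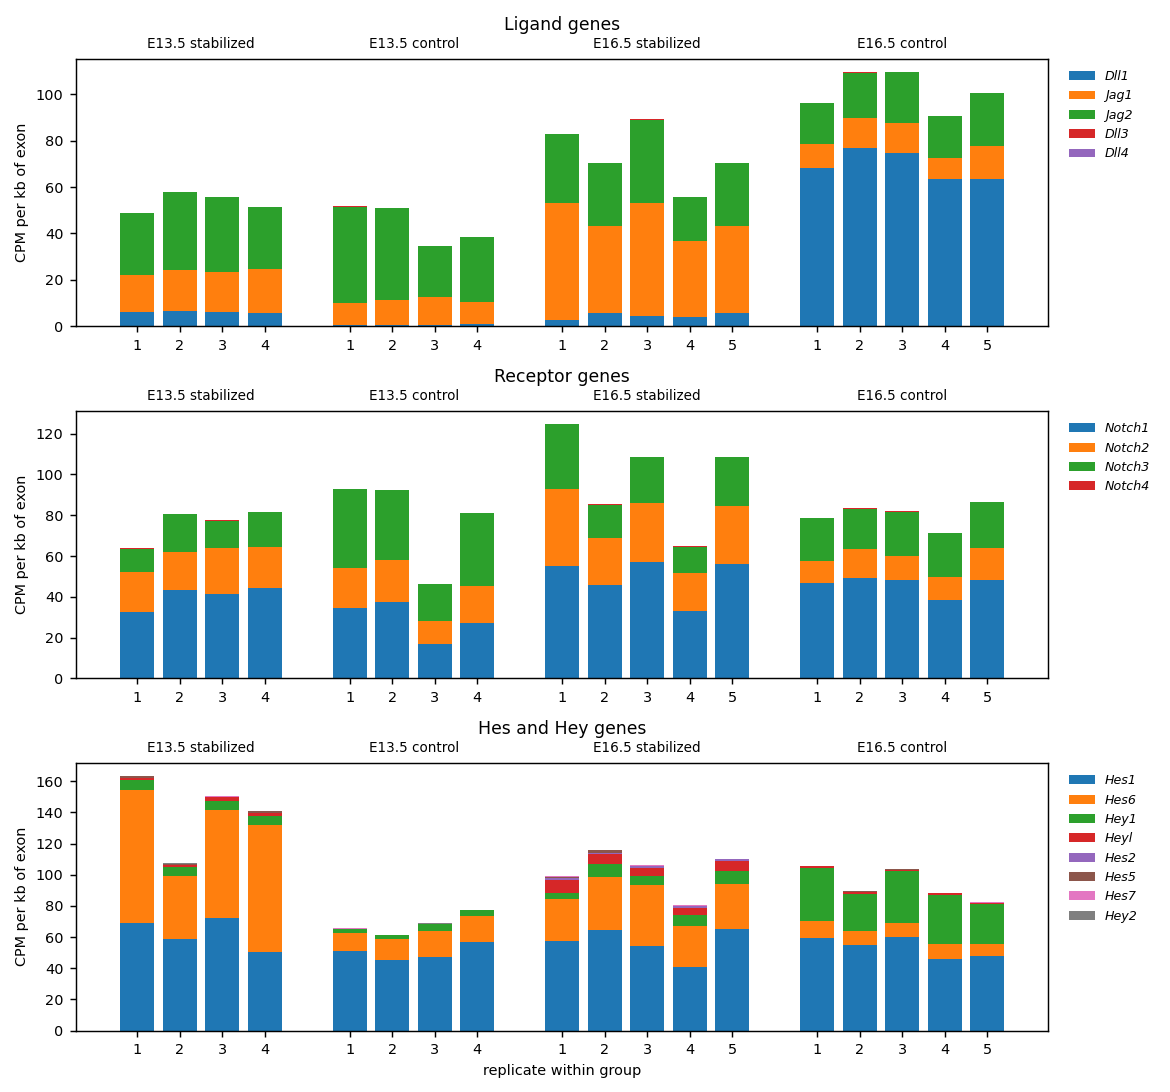
Stacked levels of ligand, receptor and Hes/Hey transcripts in each library, in CPM per kilobase of exon, by group and replicate. Dll1 fills most of the ligand bar in the 5 E16.5 control libraries and Jag1 with Jag2 most of it in all others; Notch3 takes a wider part of the receptor bar in E13.5 control libraries than in any other group.

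Among the receptors, Notch3 (ENSMUSG00000038146, chromosome 17, 32120820 to 32166852), which in the adult gland is known from luminal progenitors and elsewhere from mural cells of vessels, was the gene that fell at E13.5. It had 89.8, 153, 107 and 138 CPM in stabilized libraries, against 313, 277, 145 and 288.5 CPM in control libraries. The lowest control was replicate 3, which alone overlapped the stabilized libraries. Its log2 fold change was -1.07 ± 0.252 (SE, edgeR adjusted p = 0.00618). At E16.5 Notch3 had 257, 132, 183, 103 and 192 CPM in stabilized libraries, against 168, 158, 174, 172 and 184 CPM in control libraries. The controls lay within the wider spread of the stabilized libraries, with a log2 difference of 0.02 ± 0.223 (edgeR adjusted p = 0.961). The change in effect between stages, 1.09 ± 0.335, passed (edgeR adjusted p = 0.0182).

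Notch2 (ENSMUSG00000027878, chromosome 3, 98013527 to 98150361), a broadly expressed receptor gene, rose at E16.5. Its 5 stabilized libraries had 410, 246, 309, 199 and 309 CPM, against 118, 157, 130, 121 and 165 CPM in the 5 controls. All stabilized libraries were above all controls, by 1.09 ± 0.179 (log2, SE, edgeR adjusted p = 5.63e-05). At E13.5 the groups overlapped, with 198 to 244 CPM in stabilized and 124 to 222 CPM in control libraries and a log2 difference of 0.20 ± 0.198 (edgeR adjusted p = 0.611). The effects differed between stages by 0.89 ± 0.266 (edgeR adjusted p = 0.0138).

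Notch1 (ENSMUSG00000026923, chromosome 2, 26457903 to 26516663), the receptor that early embryonic mammary cells are known to express, did not pass at either stage. At E13.5 it had 467 to 632 CPM in stabilized and 241 to 531 CPM in control libraries (0.49 ± 0.205, edgeR adjusted p = 0.127). At E16.5 the range was 474 to 813 CPM in stabilized and 549 to 699 CPM in control libraries (0.10 ± 0.183, edgeR adjusted p = 0.702). The lowest value of each of the groups E13.5 control and E16.5 stabilized came from the library with low counts of GC-rich transcripts.

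Shares per length take out what the 3 receptor genes have in common within a library. Of the summed level of Notch1 to Notch4, Notch3 made up 19.7 ± 3.01% in stabilized and 40.3 ± 3.02% in control libraries at E13.5 (SD, n = 4 each). Its library values, 17.1 to 23.4% in stabilized and 37.1 to 43.9% in control libraries, did not overlap, although its CPM did. Notch1 made up 53.2 ± 1.28% in stabilized and 36.8 ± 2.97% in control libraries there. At E16.5 the share of Notch2 was 27.6 ± 1.79% in stabilized and 15.9 ± 1.65% in control libraries (SD, n = 5 each), again without overlap, and that of Notch1 was 50.7 ± 3.88% and 57.4 ± 2.29%. Notch4, known from endothelium, made up under 1% in every library. In the annotation Notch1 shares exonic bases with 0610009E02Rik and Gm13568, Notch2 with Gm42820 and Notch3 with Gm17276, none of which is among the counted genes. These shares are descriptions with no test, and their size depends on the length used.

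**Figure D3:**
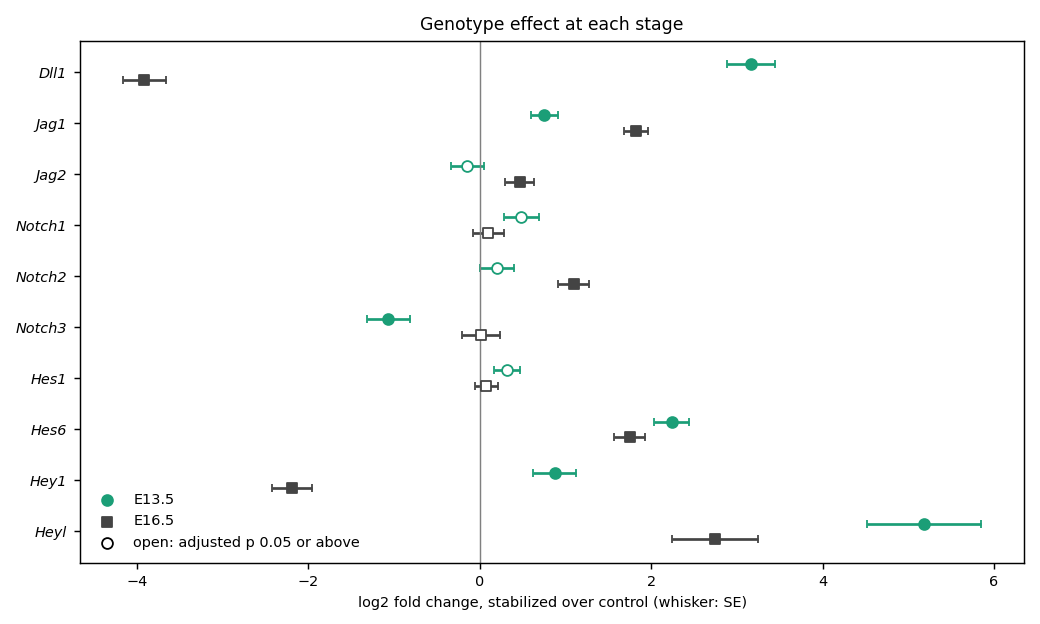
Log2 fold change of stabilized over control libraries at E13.5 (circles) and E16.5 (squares), with SE; filled marks have an edgeR adjusted p below 0.05. Dll1 and Hey1 change sides between the stages, Jag1, Hes6 and Heyl lie right of 0 at both, and Hes1 and Notch1 pass at neither.

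Hes1 (ENSMUSG00000022528, chromosome 16, 30064384 to 30067796), the best known Notch target and a repressor of the bHLH class, was the steadiest of the 10. Over all 18 libraries it ranged over 82.6 to 147 CPM. It had 103 to 147 CPM in stabilized and 92.6 to 116 CPM in control libraries at E13.5 (0.32 ± 0.150, edgeR adjusted p = 0.182). Its E16.5 range was 82.6 to 132 CPM in stabilized and 92.9 to 122 CPM in control libraries (0.07 ± 0.134, edgeR adjusted p = 0.690).

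Hes6 (ENSMUSG00000067071, chromosome 1, 91411483 to 91414038), a Hes relative that in mouse neural cells opposes Hes1 and is not a usual Notch target, rose at both stages. It had 154, 73.2, 125 and 147 CPM in stabilized libraries at E13.5, against 21.0, 24.5, 30.1 and 30.5 CPM in control libraries. At E16.5 it had 49.4, 61.6, 71.1, 47.5 and 53.0 CPM in stabilized libraries, against 19.5, 16.2, 16.2, 17.9 and 14.2 CPM in control libraries. The groups were apart at both stages, by 2.24 ± 0.206 (edgeR adjusted p = 2.76e-07) and 1.75 ± 0.182 (edgeR adjusted p = 2.47e-07) on the log2 scale. The difference between the effects, -0.49 ± 0.265, did not pass (edgeR adjusted p = 0.174), but did without E13.5 stabilized replicate 2, the lowest of its group (-0.68, edgeR adjusted p = 0.0240).

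Hey1 (ENSMUSG00000040289, chromosome 3, 8663359 to 8667256), a repressor and Notch target, turned round with stage as Dll1 did. At E13.5 it had 20.7, 20.0, 19.0 and 18.8 CPM in stabilized libraries, against 8.61, 6.69, 14.9 and 12.6 CPM in control libraries. The stabilized libraries lay above all controls, by 0.88 ± 0.250 (SE, edgeR adjusted p = 0.0215), a call lost in several alternatives. Its adjusted p was 0.0684 without E13.5 control replicate 1, 0.0755 without control replicate 2, 0.05003 without stabilized replicate 1, 0.151 under offsets from the deposited signal, 0.0562 when only the E13.5 libraries were modelled and 0.0695 with offsets for GC content (edgeR). At E16.5 Hey1 had 11.4, 27.4, 17.1, 24.7 and 25.5 CPM in stabilized libraries, against 112, 77.9, 108.6, 103 and 83.6 CPM in control libraries. The highest stabilized library was far below the lowest control, and the fold change was -2.19 ± 0.230 (edgeR adjusted p = 2.77e-07). The effects differed by -3.07 ± 0.340 between stages (edgeR adjusted p = 1.32e-06).

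Heyl (ENSMUSG00000032744, chromosome 4, 123233556 to 123249875), a Hey family repressor and Notch target known from smooth muscle, went the other way at E16.5. At E13.5 it had 7.32, 5.47, 12.1 and 9.95 CPM in stabilized libraries, against 0, 0.446, 0.502 and 0 CPM in control libraries. At E16.5 it had 42.2, 32.6, 26.5, 23.0 and 35.4 CPM in stabilized libraries, against 5.31, 4.95, 5.19, 4.93 and 3.50 CPM in control libraries. The groups were apart at both stages, by 5.18 ± 0.670 (edgeR adjusted p = 2.45e-05) and 2.74 ± 0.502 (edgeR adjusted p = 0.000234). The first effect was the larger (difference -2.44 ± 0.780, edgeR adjusted p = 0.0227), beside control levels near 0. Its share among the summed Hes and Hey transcripts per length stayed small, at 6.11 ± 1.34% in stabilized and 0.992 ± 0.103% in control libraries at E16.5, where Hey1 made up 6.43 ± 2.26% and 31.6 ± 3.27%. At E13.5, Hes6 made up 48.5 ± 8.63% in stabilized and 21.4 ± 2.73% in control libraries.

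Markers of other cells that use these genes moved unevenly with Heyl. Of 6 mural cell markers, 5 rose at E13.5 (9.58% of all genes rose). Their summed level was 66.0 to 204 CPM in stabilized and 23.5 to 42.3 CPM in control libraries. At E16.5, 4 rose and 2 fell (22.2% and 19.4% of all genes). The sums were 276 to 417 CPM in stabilized and 127 to 178.5 CPM in control libraries. By group means, the largest part of the E16.5 stabilized sum was Cspg4 (220 CPM, against 20.6 CPM in controls). That of the E16.5 control sum was Mcam, which fell (48.3 CPM in stabilized, 122 CPM in control libraries). Rgs5 was uneven, with 58.1 ± 37.4 CPM (9.32 to 98.3 CPM) in E13.5 stabilized and 0.0222 ± 0.0444 CPM in E13.5 control libraries (SD, n = 4 each). Pdgfrb, also among the 6, had 13.1 and 11.6 CPM at E13.5 (stabilized and control means). It fell at E16.5, to a mean of 6.87 CPM in stabilized against 17.5 CPM in control libraries. The part of mural cells in the Heyl result was not tested. The 7 endothelial markers summed to at most 14.1 CPM in any library. Of 5 Merkel cell markers, Sox2 and Isl1 rose at E13.5, and the sum was 9.59 to 30.0 CPM in stabilized and 0 to 0.401 CPM in control libraries. At E16.5 Isl1 rose (6.11, edgeR adjusted p = 2.11e-05), and Sox2 did not pass (means of 0.553 CPM in stabilized and 0.297 CPM in control libraries). The sum was 23.4 to 32.8 CPM in stabilized and 0.517 to 2.28 CPM in control libraries. In stabilized libraries nearly all of it was Isl1 (mean 27.1 CPM). This sum too was higher where Heyl was, and the part of Merkel cells was not tested. Atoh1, the gene that defines the lineage, had 0 counts in both E13.5 groups and in E16.5 stabilized libraries. Of 7 neural and Schwann cell markers, Tubb3 and Sox10 rose at E13.5 (sums 159 to 226 CPM in stabilized and 17.3 to 28.1 CPM in control libraries); at E16.5 Tubb3 and Stmn2 rose and Sox10 fell (sums 98.3 to 146 CPM and 503.5 to 629 CPM). Of 8 mesenchymal markers, only Vim fell at E13.5, and Vim and Pdgfra at E16.5. The 8 summed to 284 to 395 CPM in stabilized and 413 to 1042 CPM in control libraries at E13.5. At E16.5 the sums were 307.5 to 483.5 CPM in stabilized and 550 to 976 CPM in control libraries. The highest sum was in E13.5 control replicate 3, and Vim had the highest mean of the 8 in every group. The part of mesenchymal cells in the results was not tested. Summed immune, muscle and erythroid markers reached at most 12.1, 15.4 and 10.4 CPM in any library, and the melanocyte sums of the genotypes overlapped at both stages. Epcam and Cdh1, which mark epithelium, had group means of 212 to 415 CPM and 273 to 613 CPM. Neither passed at E13.5, while at E16.5 Epcam fell (-0.97, edgeR adjusted p = 6.71e-07) and Cdh1 rose (0.81, edgeR adjusted p = 8.86e-05). The keratin genes did not move as a class, and Krt18 passed only at E16.5 (-1.86, edgeR adjusted p = 7.32e-06). The basal keratin gene Krt5 rose and the luminal keratin gene Krt8 fell at both stages, while Krt14, also basal, fell at E13.5 (-1.22, edgeR adjusted p = 0.00169, 349 CPM in stabilized and 812.5 CPM in control means) and did not pass at E16.5 (-0.37, edgeR adjusted p = 0.189).

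**Figure D4:**
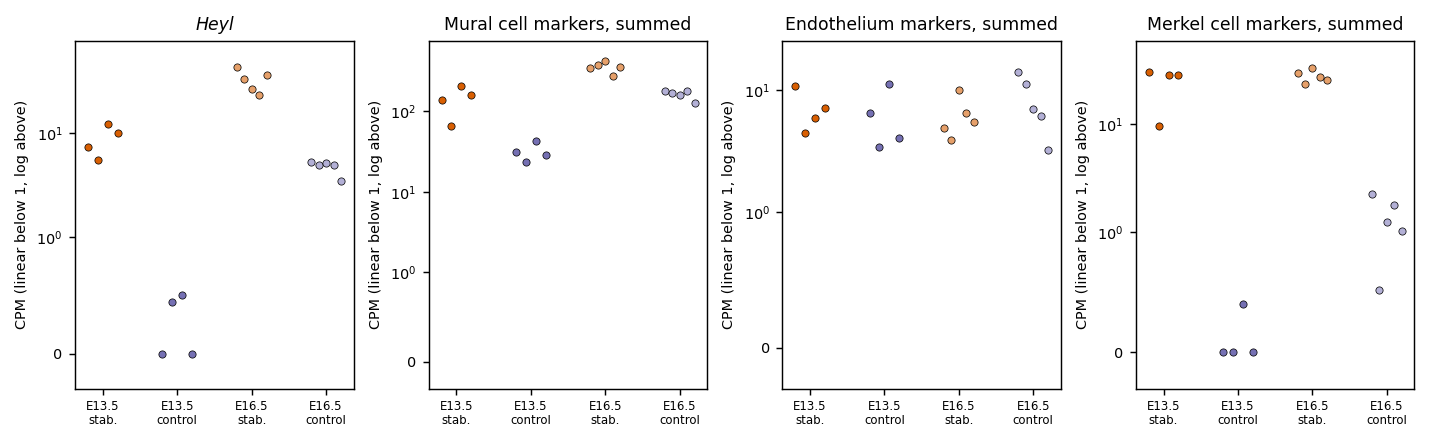
Heyl and the summed mural, endothelial and Merkel cell markers in each library, in CPM (linear below 1, log above), by group; "stab." stands for stabilized. Mural sums are higher in stabilized than in control libraries at both stages, as Heyl is, while endothelial sums overlap between all groups. In E16.5 stabilized libraries the largest part is, by group means, Cspg4 in the mural sum and Isl1 in the Merkel cell sum.

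Over time, control epithelium changed in 6 of the 10 genes between E13.5 and E16.5, 4 upward and 2 downward, with 47.5% of all genes called. Dll1 rose by 6.65 ± 0.318 on the log2 scale in controls (100.6-fold, edgeR adjusted p = 1.55e-11), Heyl by 4.32 ± 0.643 (edgeR adjusted p = 2.52e-05), Hey1 by 3.18 ± 0.262 (edgeR adjusted p = 9.10e-09) and Notch1 by 0.68 ± 0.196 (edgeR adjusted p = 0.00800), while Jag2 (-0.71 ± 0.180, edgeR adjusted p = 0.00291) and Hes6 (-0.66 ± 0.187, edgeR adjusted p = 0.00703) fell. Stabilized epithelium changed in 3, with 28% of all genes called: Jag1 (1.24 ± 0.152) and Heyl (1.88 ± 0.525) rose and Hes6 (-1.15 ± 0.186) fell. Dll1 and Hey1, the genes with large rises in controls, stood at -0.42 ± 0.237 and 0.11 ± 0.235 between the stages in stabilized epithelium and did not pass (edgeR adjusted p = 0.205 and 0.777). Notch2 and Notch3 fell just short in controls (-0.46 ± 0.187 and -0.58 ± 0.235, edgeR adjusted p = 0.0505 and 0.0502). Both passed in several alternatives, such as without E13.5 control replicate 3 (-0.61 and -0.77, edgeR adjusted p = 0.00691 and 0.00637). Without E16.5 stabilized replicate 4, Notch2 and Notch3 rose in stabilized epithelium (0.56 and 0.66, edgeR adjusted p = 0.0230 and 0.0321). These stage effects share their samples with the genotype effects above.

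The other genes of the pathway were read from 7 lists of 70 genes, of which 67 were in the table and 61 were tested. At E13.5, 11 rose and 6 fell (27.9%, against 14.9% of all genes), and at E16.5, 21 rose and 11 fell (52.5%, against 41.7%). Their median log2 fold changes were 0.05 and 0.29, also with genes at 0 counts in controls set to their lower bound. Rbpj, the DNA-binding partner of all Notch receptors, did not pass at E13.5 (126 and 111 CPM in stabilized and control means, 0.19, edgeR adjusted p = 0.509) or E16.5 (125 and 137 CPM, -0.13, edgeR adjusted p = 0.463).

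Further ligands, receptors and targets were mostly scarce. Nrarp, a Notch target that dampens the pathway, rose at both stages. It had 33.1, 47.6, 43.4 and 45.6 CPM in E13.5 stabilized libraries, against 28.5, 20.9, 20.2 and 18.6 CPM in E13.5 control libraries (0.94, edgeR adjusted p = 0.00691). At E16.5 Nrarp had 147, 137, 111, 51.3 and 115 CPM in stabilized libraries, against 74.1, 73.5, 85.1, 69.9 and 72.1 CPM in control libraries (0.58, edgeR adjusted p = 0.0254). All but stabilized replicate 4 lay above the controls. Hes5, a target known from neural progenitors, had 0 counts in E13.5 controls and 1.15 CPM on average in stabilized libraries, at least 49.2-fold higher, taking 3 counts over the control group as the floor. Dner, an unusual ligand, also had 0 counts in E13.5 controls and averaged 1.56 CPM in stabilized libraries, at least 66.5-fold higher. Hes2 had 0 counts in E13.5 stabilized, E13.5 control and E16.5 control libraries and 2.05 to 4.44 CPM in E16.5 stabilized libraries, at least 150-fold higher. Dlk1, a ligand-like protein that lacks the Notch-binding domain of Delta, had means of 5.24 CPM in E16.5 stabilized and 122 CPM in E16.5 control libraries (-4.54, edgeR adjusted p = 7.67e-05). Notch4, Dll3, Dlk2, Hes7 and Hey2 passed at neither stage, and Dll4 was too scarce to test.

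Among the enzymes that cut and glycosylate the receptors, 10 processing genes gave 2 rises at E13.5, and 2 rises and 1 fall at E16.5. Over all genes tested, 9.58% rose and 5.29% fell at E13.5, and 22.2% rose and 19.4% fell at E16.5. Adam10, which makes the ligand-triggered cut, rose at both stages, with 437, 258, 456 and 479 CPM in E13.5 stabilized libraries, against 119, 129, 147 and 176 CPM in E13.5 control libraries (1.51, edgeR adjusted p = 3.34e-06), and by 0.73 at E16.5 (edgeR adjusted p = 0.000634). Furin, which matures the receptor, rose by 0.53 at E13.5 (edgeR adjusted p = 0.0413) and fell at E16.5 (-0.74, edgeR adjusted p = 0.000618), and the γ-secretase subunit gene Aph1b rose at E16.5 (0.95, edgeR adjusted p = 0.000153). The γ-secretase subunit gene Ncstn did not pass at either stage (0.02 and 0.06, edgeR adjusted p = 0.960 and 0.703). Of 6 glycosylation genes, Lfng, a fringe enzyme that tunes the receptor towards Delta ligands, rose at E13.5 (1.39, edgeR adjusted p = 0.00123), with 18.2 to 34.0 CPM in stabilized and 4.01 to 12.0 CPM in control libraries. Poglut1, which adds O-glucose, fell at both stages (-0.50 and -0.56), and at E16.5 Pofut1, which adds O-fucose, fell (-0.74) and Eogt, which adds O-GlcNAc, rose (1.48).

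Of 13 ubiquitin and endocytosis genes, 2 passed at E13.5, beside 14.9% of all genes tested. Both fell: Numbl (-0.96), a relative of the Notch antagonist Numb, and Dtx3 (-0.86), a Deltex family ligase. At E16.5, 4 rose and 3 fell, with 41.7% of all genes called. Numbl was now among the rises (0.66, edgeR adjusted p = 0.00913), while Dtx3 did not pass. The Deltex genes parted, with Dtx1 (3.60) and Dtx2 (1.02) up and Dtx4 (-1.99) down. Of 17 genes of the nuclear complex and its co-repressors, 4 rose and 3 fell at E13.5, against 9.58% and 5.29% of all genes. Tle1, a Groucho co-repressor that Hes proteins recruit, had 150, 75.3, 167 and 171 CPM in E13.5 stabilized libraries, against 22.3, 34.7, 22.2 and 26.5 CPM in E13.5 control libraries (2.41, edgeR adjusted p = 1.30e-07). Its relative Tle4 fell (-1.09, edgeR adjusted p = 5.18e-05), as did the co-repressor gene Ctbp2 (-1.64, edgeR adjusted p = 4.43e-07). At E16.5, 8 rose and 3 fell, among them Ctbp2 again (-1.73, edgeR adjusted p = 1.05e-08), the Mastermind co-activator gene Maml3 (1.32, edgeR adjusted p = 5.35e-08) and the acetyltransferase gene Kat2b (1.64, edgeR adjusted p = 2.13e-06). Tle1 rose there too (0.62, edgeR adjusted p = 0.00787), and Tle4 turned to a rise (0.68, edgeR adjusted p = 0.000531). Proneural bHLH genes, which Hes factors repress in neural tissue, were close to absent, each of the 6 in the table under 1 CPM in every group mean. The Id genes, which encode partners that block bHLH factors, moved. Id2 rose at E13.5 (1.74, edgeR adjusted p = 0.00185) and at E16.5 (0.80, edgeR adjusted p = 0.0404). At E16.5 Id1 (3.53) and Id3 (3.39) rose as well and Id4 fell (-2.41).

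**Figure D5:**
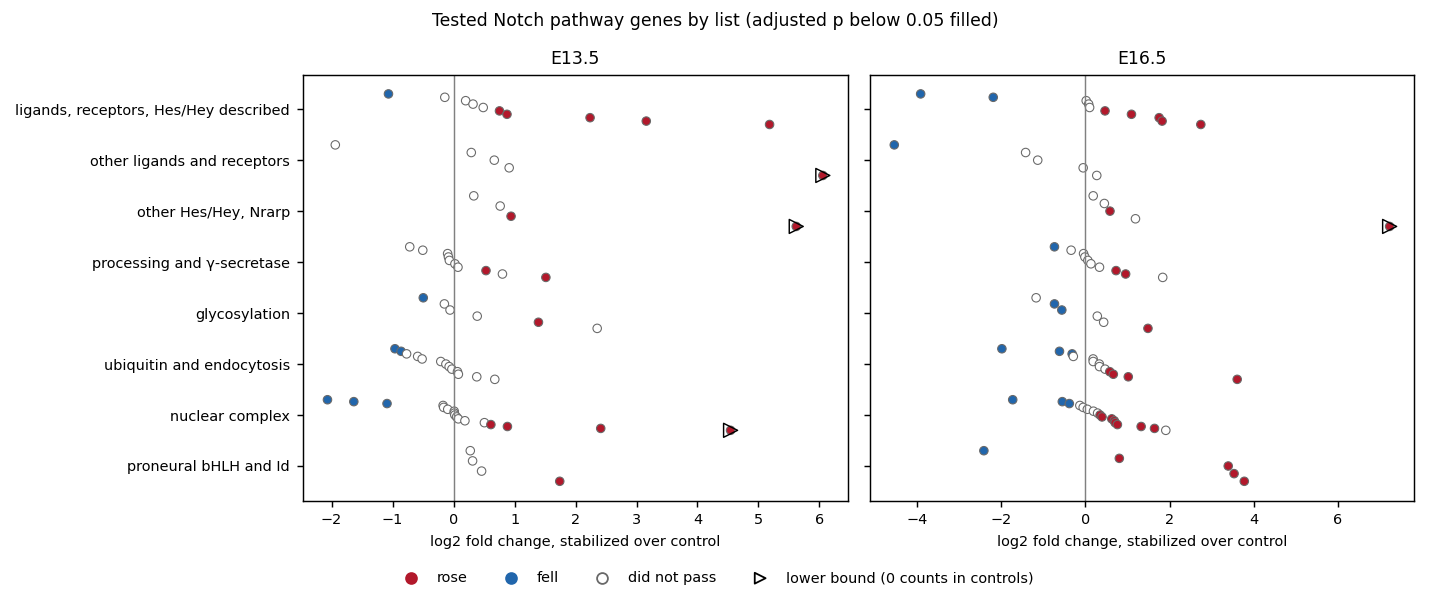
Log2 fold change of stabilized over control libraries for the tested Notch pathway genes by list, at E13.5 (left) and E16.5 (right); filled points have an edgeR adjusted p below 0.05, and triangles mark genes with 0 counts in controls, drawn at their lower bound (genes with 0 counts in both groups are left out). The nuclear list holds 4 rises and 3 falls at E13.5, and 8 rises and 3 falls at E16.5. Of all genes tested, 14.9% were called at E13.5 and 41.7% at E16.5.

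The genes whose pattern over the 18 libraries was most like each of the 10 were found by the root mean square difference between log2 CPM profiles, each centred on its own mean. For Dll1 they were Myb (0.683), Cavin2 (0.810) and Colca2 (0.842), beside a spread of 2.43 for Dll1 itself. For Hey1 they were Slc2a9 (0.364), Mthfd2 (0.365) and Adcy7 (0.371), beside 1.26. For Jag1 they were Kank1 (0.227), Slc39a14 (0.246) and Ets2 (0.264), beside 0.825, and for Hes6 Rasl11b (0.342), Gpc1 (0.426) and Mycn (0.455), beside 1.10. For Heyl the nearest were Flt1 (0.825), Lancl3 (0.997) and Dsg3 (1.05), beside 2.75. For Jag2 and Notch2 the nearest, Cmip (0.112) and Plec (0.135), stood closer still, beside 0.368 and 0.486. Notch1 was nearest to Atp11a (0.125, beside 0.418) and Notch3 to Ksr1 (0.278, beside 0.494), and Hes1 to Phf23 (0.158, beside 0.220). Among the 10 themselves, the closest pair was Jag2 and Notch2 (0.372), no closer than Jag2's own spread (0.368). The measure is small for genes that vary little, and Dll1 and Hey1 stood at 1.29 beside spreads of 2.43 and 1.26.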

How the data were processed

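RNA of hand-dissected mammary epithelium was extracted with TRI Reagent and columns and made into libraries with the Ovation SoLo kit, per the labels' protocols. The submitters' processing notes name Trimmomatic 0.39, Salmon 0.99.0, DESeq2 3.15 (as written there) and the build mm10, with no settings. The deposited estimated counts were whole numbers in the file, and the total per library is the depth behind each value. The second deposited table, a normalized signal, was used only for offsets in 1 alternative. Both tables were mapped to samples by the sample names in the labels, and a table of Ensembl gene names gave symbols for 24166 of 24376 genes.

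In edgeR 4.0.16 (R 4.3.3), the low-count filter filterByExpr (minimum count 10) left 17269 genes. After TMM scaling, all 18 libraries entered 1 quasi-likelihood model, with robust dispersions and a mean for each of the 4 groups. There were 5 contrasts: the genotype effect at each stage, their difference, and the stage effect in each genotype. P-values were adjusted by Benjamini-Hochberg with a threshold of 0.05. Log2 CPM for likeness used a prior count of 2. Levels per length used the union of GENCODE M21 exons. Named were all 10 genes, and of each other list up to 3 past the threshold with the smallest adjusted p per stage, besides every further ligand, receptor, Hes or Hey gene, Rbpj and Nrarp; Ncstn and the marker genes named were added after their values were seen. The members and lists were chosen with earlier results of these data known. Leaving out the pair of libraries that stood apart, and offsets for GC content (loess of each library's deviation on the GC content of the longest transcript), were chosen after seeing the data. DESeq2 1.42.0 was a further alternative.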

Additional observations from a re-analysis of the deposited data

Results flagged for a closer look

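Of 40 sets of values (10 genes in 4 groups), 2 held a sample far from the others of its group: Notch1 in E16.5 control replicate 4 (549 CPM, against 667 to 699 CPM in the other 4) and Heyl in E16.5 control replicate 5 (3.50 CPM, against 4.93 to 5.31 CPM). Chance flags about 1 in 20 such sets.

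The genotype effect differed between the stages, by the interaction test in edgeR, for 6 of the 10 genes, with 32.2% of all genes called. The E16.5 effect minus the E13.5 effect was -7.08 for Dll1, -3.07 for Hey1 and -2.44 for Heyl, and 1.07 for Jag1, 0.89 for Notch2 and 1.09 for Notch3, on the log2 scale. Sex makeup differs between the stages as well, and its part cannot be told apart.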

How the results depend on the processing

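The alternatives other than leaving out 1 library include the fit without both libraries that stood apart. Across them, 390 values kept their direction and side of the threshold, 18 crossed into it, 6 fell out of it and 6 reversed. With 1 library left out the numbers were 871, 17, 8 and 4. The reversed values were all small and passed no threshold. Hes1 between stages in controls stood at -0.066 with GC offsets and -0.11 with the offsets of the deposited table, against 0.09. Notch1 at E16.5 stood at -0.027 with the deposited offsets, and Notch3 at E16.5 at -0.016 with GC offsets (-0.17 to 0.15 with 1 library left out). Jag2 between stages in stabilized epithelium stood at 0.0014 without both libraries that stood apart (-0.21 to 0.018). All genes called at E13.5 numbered 2569, but 1651 from the E13.5 libraries alone and 1712 with the deposited offsets (1920 to 3035 with 1 library left out). Members down between stages in controls numbered 2, but 4 under DESeq2, RLE factors, the libraries of the comparison alone, GC offsets or without both libraries (2 to 4). Members up between stages in stabilized epithelium numbered 2, but 5 without both (2 to 4). By the longest transcript, in the order E13.5 stabilized, E13.5 control, E16.5 stabilized and E16.5 control, Notch1 made up 62.6, 46.2, 60.1 and 66.5% of receptor transcripts, Notch2 21.6, 19.6, 22.5 and 12.6% and Notch3 15.6, 34.1, 17.1 and 20.6%. Jag1 made up 27.7% of ligand transcripts in E13.5 stabilized, 49.8% in E16.5 stabilized and 9.97% in E16.5 control libraries, and Jag2 61.3, 43.5 and 22.5%. Same-numbered samples deviated together only weakly (correlations -0.0906 to 0.172 at E13.5 and -0.0995 to 0.131 at E16.5). The best match bore the same number in 2 of 4 at E13.5 and 1 of 5 at E16.5. With so few samples, this does not settle whether the numbers pair the samples. With the replicate number as a block, 2218 genes were called at E13.5 and 6779 at E16.5, Hey1 at E13.5 stood at 0.94 (edgeR adjusted p = 0.0523) and Notch3 at E16.5 at -0.051. Low counts limit Heyl in E13.5 controls and the ligands Dll3 and Dll4.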
